A study of Mus musculus with 2 samples.

Results

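The SLC25 mitochondrial carrier family was measured in poly(A)-selected RNA of mouse kidney as 50 protein-coding genes, out of 43346 genes with an Ensembl mouse identifier in the tables. A gene was a member when its identifier, without the version, belongs to a protein-coding gene of the GENCODE annotation of mm10 whose symbol is Slc25a followed by a number, or is Ucp1, Ucp2 or Ucp3. The rule itself uses no measured value, but it was set with earlier results of these data known. The data are 2 RNA-seq libraries, called library 2 and library 1 here after their technical replicate numbers. Both were made from 1 kidney sample of 1 female C57BL/6J mouse, an adult 10 weeks old, for which the labels give no treatment and no altered allele. Library 2 is dated 2015 in the labels and library 1 carries no date. There is no second animal and no control group, so each comparison sets 1 library against another of the same tissue. Every SD below is technical (n = 2 libraries), and the date of a library and anything else that changed with it cannot be told apart.

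Mitochondrial carriers are small proteins of the inner mitochondrial membrane, built from repeats of a pair of membrane helices, and most exchange a metabolite of the matrix for one of the cytosol. A signature sequence recurs in the repeats: proline, any residue, aspartate or glutamate, any pair of residues, then lysine or arginine. The carriers pass ATP, phosphate, citrate, malate, amino acids, cofactors and iron across a membrane that is otherwise tight to them. Kidney tubule cells are rich in mitochondria, which power the recovery of salt and solutes from the filtrate.

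Library 2 held 20720537 estimated counts over all genes and library 1 held 28263730. Members took 105357 of these counts in library 2 and 64680 in library 1. Kidney markers were present in both libraries: the 4 proximal tubule markers summed to 3897 TPM (a length-corrected level with the same total in every library) in library 2 and 399.5 TPM in library 1, and the 2 thick ascending limb markers to 3204 and 780.2 TPM. Mitochondrially encoded genes and 11 nuclear copies of them took 36.5% of all TPM in library 2, against 74.5% in library 1, which lowers every other TPM of library 1. Leaving those genes out of the total, the family summed to 6422 TPM in library 2 and 5093 TPM in library 1. The proximal tubule markers did not move together. Miox was at 2196 TPM in library 2 and 63.5 TPM in library 1, Slc34a1 at 1337 and 93.5 TPM. Lrp2 was at 234.6 and 114.2 TPM, and Slc5a12 at 129.3 and 128.3 TPM. Both libraries come from 1 sample, so the marker sums compare libraries and do not measure cell content. Within a library of whole tissue, the number of cells of a type and the RNA per cell cannot be told apart.

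The family was led by the carriers of phosphate and adenine nucleotides in both libraries. Slc25a5 and Slc25a3 ranked first and second, and together they held 48.5% of the family's TPM in library 2 and 59.3% in library 1. All 50 members summed to 4076 TPM in library 2 and 1297 TPM in library 1, with a median member at 20.0 and 3.16 TPM. A level of 1 TPM or more was reached by 42 members in library 2 and 33 in library 1. These 33 were at 1 TPM or more in both libraries, 9 reached it in library 2 alone, and 8 stayed under it in both. Of the 10 most abundant members of each library, 6 were shared. Slc25a39, Slc25a10, Slc25a11 and Slc25a1 stood among the top 10 of library 2 alone, and Slc25a36, Slc25a16, Slc25a13 and Slc25a46 among those of library 1 alone. Across the 50 genes, log2(TPM + 1) of both libraries correlated with Pearson r = 0.728 and Spearman rho = 0.723, a description across genes that share the tissue and not replicates.

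**Figure D1:**
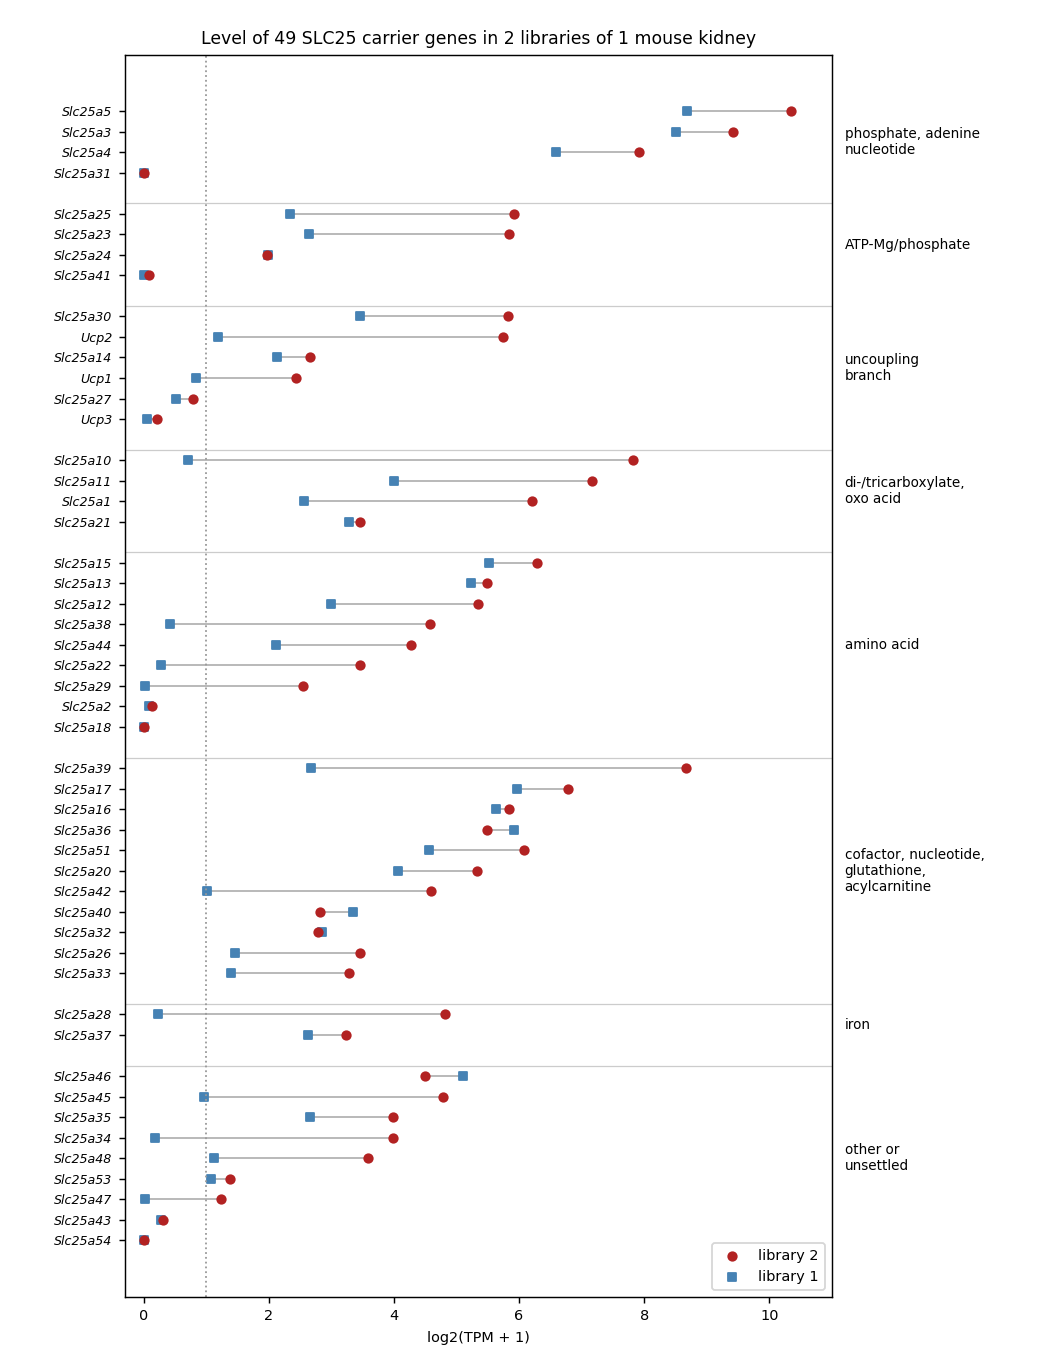
Level of 49 carrier genes as log2(TPM + 1), by role group, with library 2 as circles and library 1 as squares, 1 point per gene and library joined by a line, and a dotted line at 1 TPM. Slc25a5 and Slc25a3 lie highest in both libraries, while Slc25a10 and Slc25a39 show the widest gaps, with library 2 above library 1.

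To compare the libraries gene by gene, estimated counts were scaled by TMM and tested with an exact two-sided conditional binomial test. P-values were Benjamini-Hochberg adjusted over the 15553 genes with 10 counts or more in both libraries together. A gene was called when the adjusted p was under 0.05 and the log2 ratio, library 2 over library 1, was 1 or more in either direction. The test compares the reads of 2 libraries, not conditions. Of the 50 members, 44 had enough counts to be tested. Of these 44, 22 were called higher in library 2, while 35.5% of all genes tested were. A further 7 (15.9%) were called lower, against 24.9% of all genes tested. With sizes set by total counts instead of TMM, the split was 25 higher and 1 lower, and the median of all genes moved to 1.02 from 0.12. The median log2 ratio of the 44 members was 0.73, beside 0.12 for all genes tested. The 7 called lower in library 2 were Slc25a16, Slc25a21, Slc25a24, Slc25a32, Slc25a36, Slc25a40 and Slc25a46. Slc25a16 and Slc25a21 had a higher TPM in library 2 and yet a lower TMM-scaled count there, since TPM carries the mitochondrial share and scaled counts are set by the bulk of genes.

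The library ratio followed the base composition of the transcripts. Over the 39 members with 100 counts or more and a value for the GC content of their most abundant transcript, the log2 ratio correlated with GC at Spearman rho = 0.942 and Pearson r = 0.899. Over all 11493 genes of that depth, the values were 0.915 and 0.839. Over the 45 members with a GC value at any depth, GC content ran between 38.8% and 60.9%, with a median of 52.4%. The classes that follow hold the 39 members with 100 counts or more. The share of all genes called within each class was not counted. Only the class medians therefore set members beside other genes, and the counts of calls do not set members apart. All 13 of them at 55% GC or more were called higher in library 2, with log2 ratios between 1.90 and 8.40 and a median of 4.50, beside a median of 3.80 for all genes in that class. Of the 7 under 45% GC, 6 were called lower and none higher, with a median log2 ratio of -1.40 beside -1.47 for all genes of that class. Between 50% and 55% GC, 5 of 9 members were called higher, with a median of 1.05 beside 1.04. Between 45% and 50% GC, 2 of 10 were called higher and none lower, with a median of -0.28 beside -0.50. At lower depth, Slc25a43 with 55.4% GC was tested and not called, at -0.94.

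**Figure D2:**
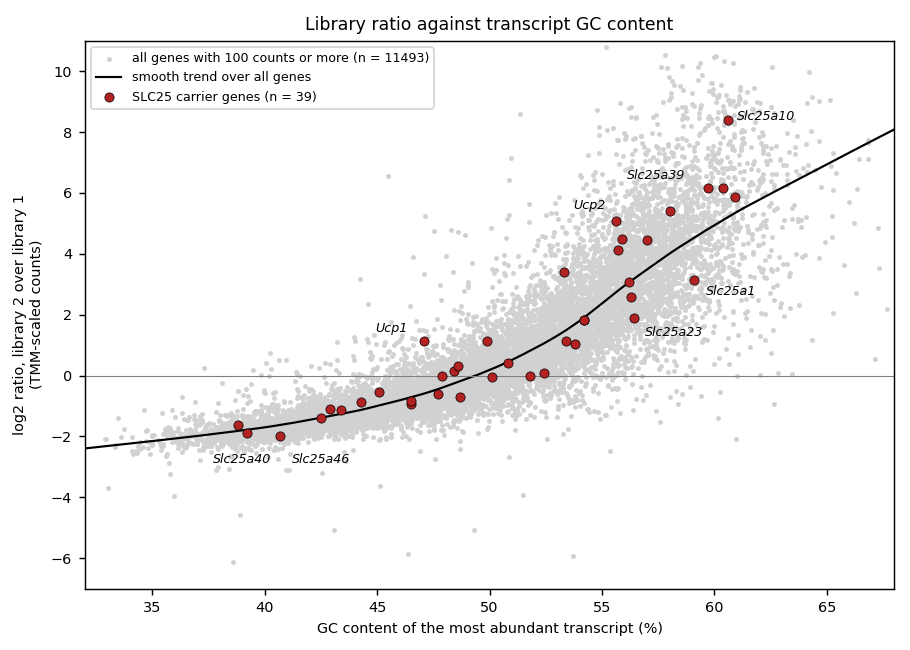
Log2 ratio of TMM-scaled counts, library 2 over library 1, against GC content of the most abundant transcript, for 11493 genes (grey), 39 carrier genes (red) and the smooth trend over all genes (line). Carriers climb with GC along the trend, and Slc25a10 and Ucp2 lie above it while Slc25a1 and Slc25a23 lie below it.

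A smooth GC trend fitted over all genes was then removed and the test was repeated. Of 42 members with a GC value, 9 were called higher in library 2 and 3 lower, which is 21.4% and 7.1% of them, against 11.4% and 10.6% of all 14762 genes tested in that way. The SD of the log2 ratio over the 39 well-counted members fell to 1.01, against 2.68 without the step, beside a median counting error of 0.11. Over all genes of that depth the SD was 1.40 with the trend removed and 2.43 without. Of the 27 members called before that have a GC value, 9 kept their call, 2 were called the other way and 16 lost it. Slc25a10 had the highest log2 ratio of those called, 3.23 after removal and 8.40 before. Ucp2 followed at 2.37, then Slc25a45 at 1.99, Ucp1 at 1.71, Slc25a38 at 1.63, Slc25a34 at 1.45, Slc25a39 at 1.35, and Slc25a22 at 1.02. Slc25a1 and Slc25a23 turned to called lower, at -1.38 and -1.28, where they had been called higher at 3.13 and 1.90. Slc25a43 was called lower only in this way, at -3.41, on 4 counts in library 2 and 6 in library 1. No member called lower without the step was called in either direction after it. Slc25a30, called higher without the step, and Slc25a32, called lower, were given no GC value and were not placed. Their transcript lengths differed by more than 10% between the 2 annotation releases. The longest coding transcript has 45.4% GC in Slc25a30 and 41.2% in Slc25a32.

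**Figure D3:**
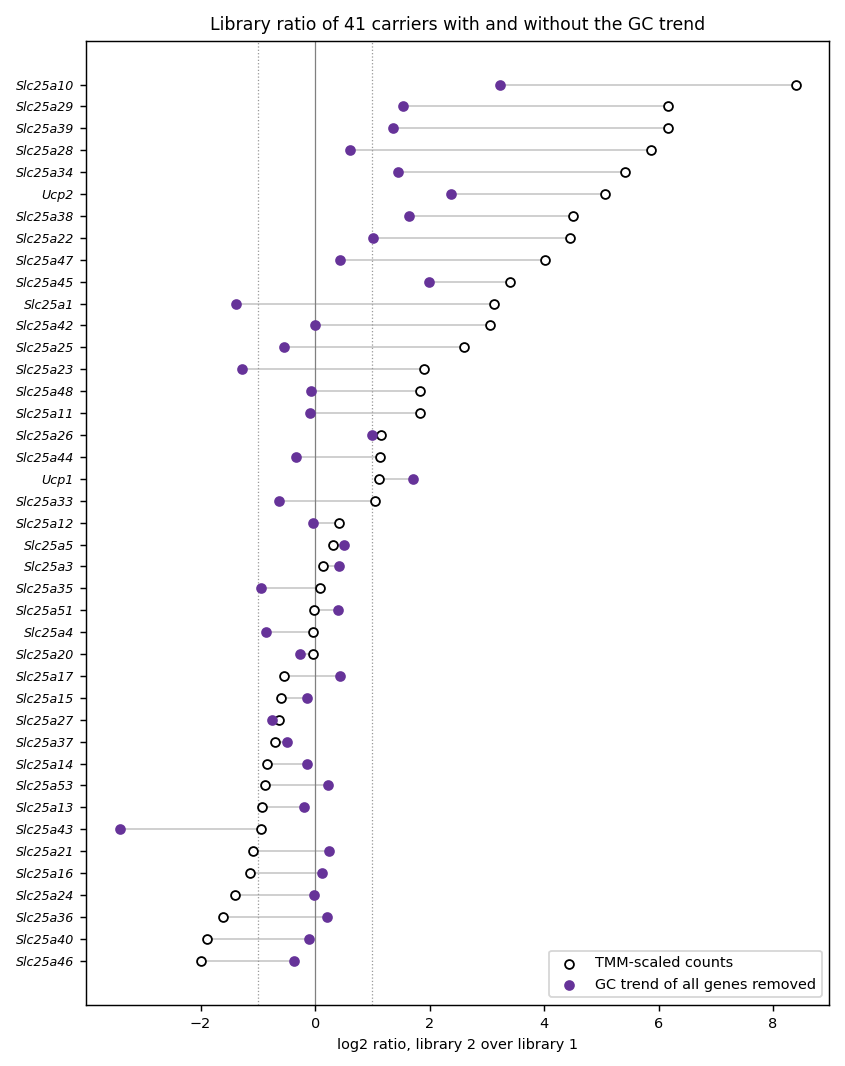
Log2 ratio, library 2 over library 1, of 41 carriers from TMM-scaled counts (open circles) and with the GC trend of all genes removed (filled circles), with dotted lines at the call bounds of -1 and 1. Most filled circles lie nearer to 0 than the open ones. Several carriers cross 0, and among these Slc25a1 and Slc25a23 alone pass the opposite call bound.

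The phosphate and adenine nucleotide carriers supply ATP synthase with its substrates and release its product. Slc25a5 (ENSMUSG00000016319.3, chrX:36795651-36798807 of mm10, plus strand), a widely expressed ADP/ATP carrier, was at 1296 TPM in library 2 and 408 TPM in library 1, a mean of 852 ± 628 TPM (SD, n = 2 libraries). Slc25a3 (ENSMUSG00000061904.8, chr10:91116574-91124059, minus strand), the phosphate carrier, was at 682.5 TPM in library 2 and 361 TPM in library 1, a mean of 522 ± 227 TPM. Slc25a4, the ADP/ATP carrier known from heart and skeletal muscle, was at 241 TPM in library 2 and 95.5 TPM in library 1, a mean of 168 ± 103 TPM. Library 2 was higher in TPM for each of them. All 3 passed the count minimum and none was called, with log2 ratios of scaled counts of 0.31 for Slc25a5, 0.14 for Slc25a3 and -0.03 for Slc25a4. Slc25a31, the ADP/ATP carrier known from testis, had 0 counts in both libraries. The group held 54.4% of the family's TPM in library 2 and 66.6% in library 1. Slc25a5 was the only member with near-identical copies elsewhere in the annotation: the processed pseudogenes Gm5529 and Gm5560, at 0.29 and 0.73 TPM in library 2 and 0.15 and 0.13 TPM in library 1. How reads were split among these 3 genes is uncertain.

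The calcium-regulated ATP-magnesium/phosphate carriers exchange ATP-magnesium for phosphate and so set the size of the matrix adenine nucleotide pool. Slc25a25 was at 59.2 TPM in library 2 and 4.08 TPM in library 1, and Slc25a23 was at 56.0 and 5.28 TPM. Both were called higher in library 2. With the GC trend removed, Slc25a25 had a log2 ratio of -0.55 and was not called, and Slc25a23 was called lower at -1.28. Slc25a24 was at 2.91 TPM in library 2 and 2.98 TPM in library 1 and was called lower in library 2 on scaled counts. Slc25a41, a relative without the calcium-binding domain, had 1 count in library 2 and 0 in library 1.

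The uncoupling branch includes Slc25a30 (ENSMUSG00000022003.6, chr14:75760117-75787037, minus strand), first described as the kidney mitochondrial carrier protein. It was at 55.5 TPM in library 2 and 9.97 TPM in library 1, with 1385 and 466 counts, and was called higher in library 2 at a log2 ratio of 1.12. As the length match between annotation releases left Slc25a30 without a GC value, that call was not tested with the GC trend removed. It was the most abundant of the branch in both libraries. Ucp2 (ENSMUSG00000033685.8, chr7:100493337-100502020, plus strand), an uncoupling protein relative expressed in many tissues and in immune cells, was at 52.4 TPM in library 2 and 1.29 TPM in library 1, with 1443 and 31 counts. That is a scaled count ratio of 33.9, with a 95% counting interval of 23.8 to 50.1. The 5 leukocyte markers summed to 41.6 TPM in library 2 and 3.94 TPM in library 1, with 4 of 5 and 1 of 5 at 1 TPM or more. Csf1r was at 18.1 TPM in library 2 and 0.75 TPM in library 1, C1qb at 17.6 and 0.14 TPM, and Cd68 at 3.06 and 0.31 TPM. Ptprc, which marks all leukocytes, was at 2.61 TPM in library 2 and 2.71 TPM in library 1. On scaled counts it was called lower, at a log2 ratio of -1.52. Cd3e of T cells was at 0.20 and 0.03 TPM. With the GC trend removed, the log2 ratios were 1.40 for Csf1r, 1.88 for C1qb, 1.49 for Cd68 and 0.02 for Ptprc. In that way 3 leukocyte markers were called higher and none lower, where all genes tested gave 11.4% and 10.6%. The part of leukocytes in the Ucp2 level was not tested.

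Ucp1, the uncoupling protein of brown fat, was found at a low level: 4.39 TPM in library 2 and 0.78 TPM in library 1, with 105 and 35 counts. It was called higher in library 2, with a log2 ratio of 1.12, and 1.71 with the GC trend removed. The 5 fat markers summed to 33.5 TPM in library 2 and 1.85 TPM in library 1. Cfd was at 25.0 TPM in library 2 and 0.09 TPM in library 1, Adipoq at 5.02 and 1.56 TPM, and Cidea at 2.12 and 0.10 TPM. Plin1 had 33 counts in library 2 and 0 in library 1, and Elovl3 was at 0.14 and 0.10 TPM, on 3 and 4 counts. In library 1, Adipoq had 53 counts, but Cfd had only 2 and Cidea 3. Beside Ucp1, fat markers were thus detected in library 2, except for Elovl3 near the floor, and in library 1 mainly as Adipoq. Adipoq had 47.5% GC, against 58.4% for Cfd, 61.3% for Plin1 and 55.6% for Cidea. With the GC trend removed, the log2 ratio was 0.81 for Adipoq, 0.31 for Cidea, 2.58 for Cfd and 5.11 for Plin1. In that way 1 fat marker was called higher and none lower, where all genes tested gave 11.4% and 10.6%. The part of fat in the Ucp1 level was not tested. Ucp3, the skeletal muscle relative, had 6 counts in library 2 and 3 in library 1 and was not tested, and the 4 skeletal muscle markers summed to 1.52 and 0.76 TPM. Slc25a14 was at 5.33 TPM in library 2 and 3.36 TPM in library 1, and Slc25a27, known from brain, at 0.73 and 0.44 TPM. Neither was called.

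Carriers of di- and tricarboxylates and oxo acids link the citric acid cycle with gluconeogenesis and redox shuttles. This group took 11.1% of the family's TPM in library 2 and 2.3% in library 1, and 3 of its 4 members were called higher in library 2, where all genes tested gave 35.5%. With the GC trend removed, 1 was called higher and 1 lower, where all genes tested gave 11.4% and 10.6%. Slc25a10 (ENSMUSG00000025792.5, chr11:120491840-120499187, plus strand), the dicarboxylate carrier that exchanges malate or succinate for phosphate, was at 226 TPM in library 2 and 0.63 TPM in library 1, a mean of 113 ± 160 TPM whose SD exceeds it. It had 6657 counts in library 2 and 14 in library 1, a scaled ratio of 347 with a 95% counting interval of 206 to 634. It ranked 444th among protein-coding genes in library 2 and 9848th in library 1. Coding transcripts held 95.3% of its TPM in library 2 and 11.1% in library 1. There a processed transcript, Slc25a10-204, led with 77.8% on 7 counts, so these levels rest on different transcripts. Slc25a11, the oxoglutarate carrier of the malate-aspartate shuttle, was at 142 TPM in library 2 and 14.9 TPM in library 1. Slc25a1, the citrate carrier, was at 72.5 TPM in library 2 and 4.92 TPM in library 1. With the GC trend removed, Slc25a1 was called lower, at a log2 ratio of -1.38, and Slc25a11 was not called, at -0.09. Slc25a21, the oxodicarboxylate carrier of lysine and tryptophan breakdown, was at 9.93 TPM in library 2 and 8.71 TPM in library 1 and was called lower on scaled counts.

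Among amino acid carriers, 4 of the 7 tested were called higher in library 2 and none lower, where all genes tested gave 35.5% and 24.9%. With the GC trend removed, 2 were called higher, where all genes tested gave 11.4%. Slc25a15, the ornithine carrier of the urea cycle, led the group at 76.7 TPM in library 2 and 45.1 TPM in library 1. The aspartate/glutamate carriers of the malate-aspartate shuttle followed, with Slc25a13 at 43.7 TPM in library 2 and 36.6 TPM in library 1 and Slc25a12 at 39.4 and 6.95 TPM. These 3 were not called. Slc25a44, a branched-chain amino acid carrier, was at 18.3 TPM in library 2 and 3.33 TPM in library 1 and was called higher, but not with the GC trend removed, at a log2 ratio of -0.33. The glutamate carrier Slc25a22 was at 10.0 TPM in library 2 and 0.21 TPM in library 1, with 311 and 10 counts, and was called higher with and without the GC step. Slc25a29, a carrier of basic amino acids, was at 4.82 TPM in library 2 and 0.02 TPM in library 1, on 139 counts and 1. Its ratio of 101 has a 95% counting interval of 17.9 to 4031, and it was not called with the GC trend removed, at a log2 ratio of 1.54. The other glutamate carrier, Slc25a18, had 0 counts in both libraries, and Slc25a2 had 2 counts in each.

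Slc25a38, the glycine carrier that feeds heme synthesis, was at 22.8 TPM in library 2 and 0.34 TPM in library 1, with 539 and 17 counts. It was called higher with and without the GC step. The mitoferrins bring iron into the matrix. Slc25a37, the mitoferrin of developing red cells, was at 8.39 TPM in library 2 and 5.21 TPM in library 1 and was not called. Slc25a28, the mitoferrin of other tissues, was at 27.2 TPM in library 2 and 0.17 TPM in library 1, with 593 and 7 counts, and lost its call with the GC trend removed at a log2 ratio of 0.61. The 4 red blood cell markers summed to 1309 TPM in library 2 and 31.2 TPM in library 1, of which Hbb-bs gave 868 and 29.8 TPM. Alas2, the first enzyme of heme synthesis in red cells, was at 4.74 TPM in library 2 and 0.75 TPM in library 1. The part of red cell RNA in these carrier levels was not tested.

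The carriers of cofactors, nucleotides, glutathione and acylcarnitines held calls in both directions, with 5 of 12 called higher in library 2 and 4 lower, near the 35.5% and 24.9% of all genes tested. Slc25a39 (ENSMUSG00000018677.5, chr11:102402985-102407946, minus strand), a carrier needed for glutathione import, was at 407 TPM in library 2 and 5.38 TPM in library 1, on 9142 and 93 counts, a mean of 206 ± 284 TPM. Its paralog Slc25a40, with the same role, was at 6.05 TPM in library 2 and 9.21 TPM in library 1, on 251 and 678 counts, a mean of 7.63 ± 2.23 TPM. Slc25a39 was called higher and Slc25a40 lower. Slc25a17, a peroxisomal carrier of coenzyme A and related cofactors, was at 109 TPM in library 2 and 61.7 TPM in library 1. Slc25a51, the NAD carrier, was at 66.9 TPM in library 2 and 22.7 TPM in library 1. Slc25a20, the carnitine/acylcarnitine carrier of fatty acid oxidation, was at 39.4 TPM in library 2 and 15.7 TPM in library 1. None of these 3 was called.

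Slc25a16 and Slc25a42 are linked to coenzyme A transport. Slc25a16 was at 56.4 TPM in library 2 and 48.3 TPM in library 1 and Slc25a42 at 23.2 and 1.01 TPM, the first called lower on scaled counts and the second higher. The pyrimidine nucleotide carriers went opposite ways: Slc25a36 was at 44.1 TPM in library 2 and 59.8 TPM in library 1 and was called lower, and Slc25a33 was at 8.74 and 1.64 TPM and was called higher. Slc25a26, the S-adenosylmethionine carrier, was at 9.97 TPM in library 2 and 1.75 TPM in library 1 and was called higher. Slc25a32, which serves folate and flavin transport, was at 5.87 TPM in library 2 and 6.25 TPM in library 1 and was called lower. With the GC trend removed, Slc25a39 kept its call, and Slc25a16, Slc25a26, Slc25a33, Slc25a36, Slc25a40 and Slc25a42 were not called.

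The 9 other members have another role or an unsettled substrate. Slc25a46, an outer membrane protein of mitochondrial dynamics, was at 21.7 TPM in library 2 and 33.5 TPM in library 1 and had the lowest log2 ratio of the tested members, -1.99. Slc25a45 was at 26.5 TPM in library 2 and 0.95 TPM in library 1, and kept its call with the GC trend removed. Slc25a34 was at 14.9 TPM in library 2 and 0.13 TPM in library 1, on 608 and 10 counts, and kept its call too. Slc25a35 was at 14.9 TPM in library 2 and 5.32 TPM in library 1 and was not called. Its exons share 1151 bases with Rangrf on the opposite strand, and whether counting used strand is not stated, so reads of these genes may be mixed. In all, 13 members have exons that overlap a gene on the opposite strand; the next longest stretches are 383 bases in Slc25a46, 381 in Slc25a37, 379 in Slc25a25 and 305 in Ucp2. Slc25a48 was at 10.95 TPM in library 2 and 1.19 TPM in library 1 and was called higher, but not with the GC trend removed, at a log2 ratio of -0.07. Slc25a47, known from liver, had 31 counts in library 2 and 1 in library 1, a ratio of 22.6 with a 95% counting interval of 3.77 to 921, and was called higher only without the GC step. Slc25a53 was at 1.61 TPM in library 2 and 1.11 TPM in library 1, Slc25a43 at 0.24 and 0.21 TPM, and Slc25a54 had 0 counts in both libraries. The 3 members at 0 counts in both were Slc25a18, Slc25a31 and Slc25a54. By counting error alone, a level worth 3 counts could still have given 0 in a library.

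Related carriers were set side by side with their base composition. Over 14 pairs, the order of the members' TPM differed between the libraries in 6. Among these, Slc25a34 and Slc25a35 were level in library 2, at 14.89 and 14.88 TPM. Slc25a23 and Slc25a25, also among these, hardly differ in GC content, at 56.4% and 56.3%. In 9 of the 12 pairs that allow the comparison, the member with the higher GC content gained TPM relative to its partner in library 2. The Slc25a39 and Slc25a40 proteins share 54.3% of aligned residues, and their transcripts have 59.7% and 39.2% GC. Slc25a39 stood at 67.2 times Slc25a40 in library 2 and at 0.584 times in library 1. Slc25a28 and Slc25a37, with 67.4% identity and 60.9% and 48.7% GC, gave 3.24 times in library 2 and 0.0326 times in library 1. Slc25a10 and Slc25a11, with 40.6% identity and 60.6% and 54.2% GC, gave 1.59 times in library 2 and 0.0422 times in library 1. Slc25a34 and Slc25a35 gave 1.00 times in library 2 and 0.0244 times in library 1. The ADP/ATP carriers kept their order: Slc25a5 stood at 5.38 times Slc25a4 in library 2 and 4.27 times in library 1, with 89.6% identity and GC of 48.6% and 51.8%. Slc25a45 over Slc25a48 gave 2.42 times in library 2 and 0.798 times in library 1, at 53.3% and 54.2% GC, so here the member of lower GC gained.

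**Figure D4:**
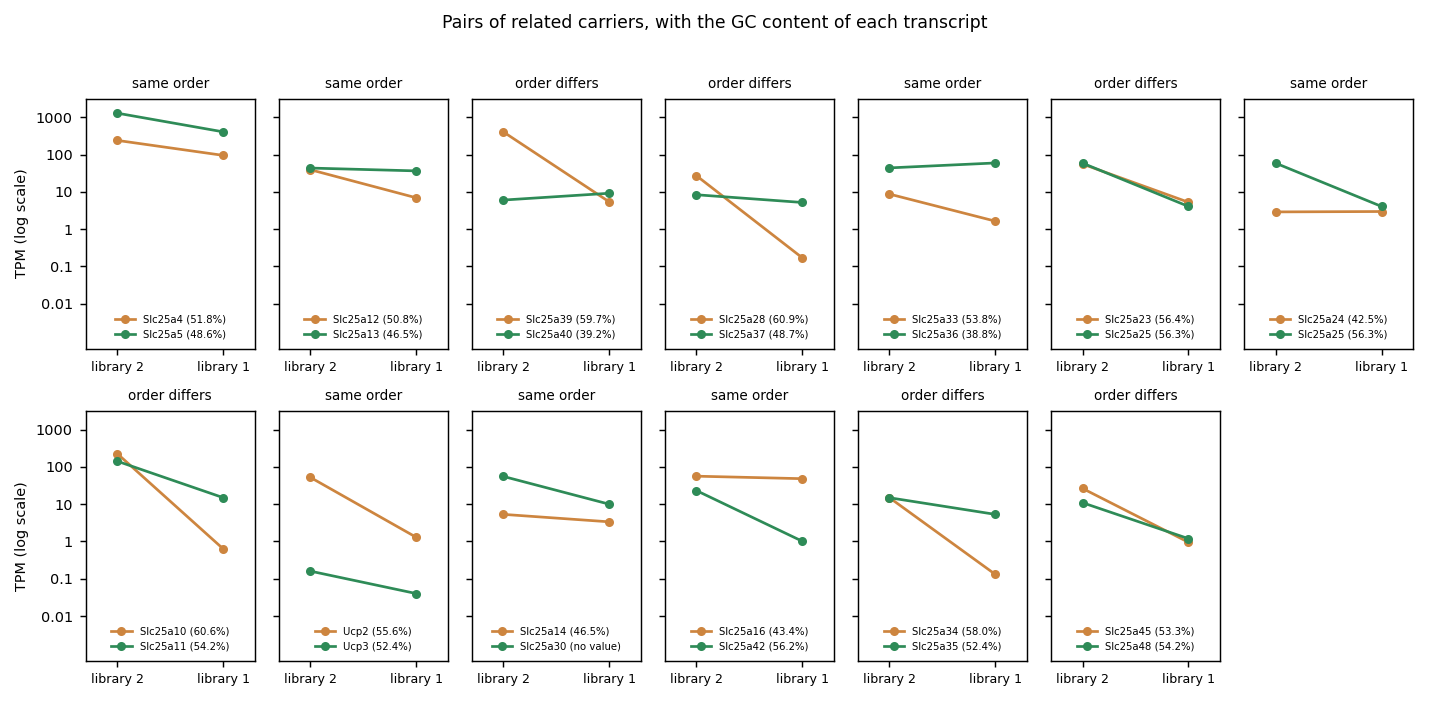
TPM on a log scale of 13 pairs of related carriers, library 2 at the left and library 1 at the right of each panel, with the GC content of each member's most abundant transcript in the legend. The pair Slc25a18 with Slc25a22 is left out because Slc25a18 had 0 counts. Crossing lines mark pairs whose order differs, such as Slc25a39 with Slc25a40 and Slc25a10 with Slc25a11; Slc25a4 and Slc25a5 run side by side.

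The coding sequences of 4 such pairs are shown around a carrier signature, because the proteins keep the signature while the codons around it differ in base composition. Each is 90 bases of coding sequence read on the coding strand from GENCODE M21 transcripts (mm10, GRCm38), 5′ to 3′. Capitals mark the 18 bases that encode the 6 residues of the signature.
Slc25a39: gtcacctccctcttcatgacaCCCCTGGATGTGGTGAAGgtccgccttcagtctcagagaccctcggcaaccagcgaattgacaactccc
Slc25a40: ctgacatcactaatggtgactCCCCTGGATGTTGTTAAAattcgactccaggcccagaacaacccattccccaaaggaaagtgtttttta
Slc25a28: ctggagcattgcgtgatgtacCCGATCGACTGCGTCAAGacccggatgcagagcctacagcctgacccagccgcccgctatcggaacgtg
Slc25a37: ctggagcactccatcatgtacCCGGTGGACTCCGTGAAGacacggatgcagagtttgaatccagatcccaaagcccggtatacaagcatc
Slc25a10: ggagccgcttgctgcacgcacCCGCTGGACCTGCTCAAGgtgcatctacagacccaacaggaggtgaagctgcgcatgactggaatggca
Slc25a11: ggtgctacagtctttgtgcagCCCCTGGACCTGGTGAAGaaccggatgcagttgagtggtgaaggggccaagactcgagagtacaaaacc
Slc25a5: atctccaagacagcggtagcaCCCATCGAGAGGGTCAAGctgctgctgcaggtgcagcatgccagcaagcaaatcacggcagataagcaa
Slc25a4: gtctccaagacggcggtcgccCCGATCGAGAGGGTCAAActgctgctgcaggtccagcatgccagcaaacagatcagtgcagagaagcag
The window of Slc25a39 lies at chr11:102406237-102406570 on the minus strand with an intron inside, and that of Slc25a40 at chr5:8427501-8430425 on the plus strand, also across an intron. These hold 57.8% and 44.4% GC, and 21 and 14 of their 30 codons end in G or C. The windows of Slc25a28 (chr19:43667093-43674514, minus strand) and Slc25a37 (chr14:69249572-69284770, minus strand) hold 62.2% and 53.3% GC. Those of Slc25a10 (chr11:120492038-120494527, plus strand) and Slc25a11 (chr11:70646135-70646224, minus strand) hold 61.1% and 55.6%. For the pair that kept its order, Slc25a5 (chrX:36795791-36796881, plus strand) and Slc25a4 (chr8:46209470-46210862, minus strand), the values are 55.6% and 60.0%. All of these but Slc25a11 span an intron in the genome. A window is short and does not stand for the whole coding sequence. Over the whole coding sequence, Slc25a28 and Slc25a37 had 60.3% and 57.8% GC. The order turned for codons ending in G or C, at 69.2% in Slc25a28 and 74.9% in Slc25a37. In the other pairs shown, the member with the higher window GC also had the higher share of such codons.

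A search of the longest complete coding sequence of each member found the signature, written as proline, any, aspartate or glutamate, any, any, lysine or arginine, at least once in 47 of 50 members and 3 times or more in 30. It was absent in this exact form from Slc25a46, Slc25a51 and Slc25a53. Outside the family, 26.5% of 21470 genes held it at least once and 2.31% held it 3 times or more, in proteins of any length. The members' proteins had 265 to 677 residues, with a median of 318. The share of codons ending in G or C ran between 36.5% and 76.0% over members, and it followed the library ratio with Spearman rho = 0.731 over 39 members, less closely than the GC content of the whole transcript did.

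The transcript tables show which isoforms carried these levels, as estimated by the authors' quantification. Of 34 members with 2 or more annotated transcripts, 25 had 50 counts or more in each library. The most abundant transcript was the same in both libraries for 17 of them and differed for 8: Slc25a1, Slc25a12, Slc25a25, Slc25a36, Slc25a39, Slc25a40, Slc25a42 and Slc25a44. In Slc25a39 the transcript Slc25a39-201 made up 84.1% of the gene's TPM in library 2 and 6.9% in library 1, where the shorter Slc25a39-205 led with 70.9%. In Slc25a1 the coding transcript Slc25a1-201 made up 75.1% in library 2 and 23.7% in library 1, where a retained-intron transcript, Slc25a1-202, led with 74.8%. In Slc25a12 a transcript annotated for nonsense-mediated decay led in library 2 with 76.5%, and the coding Slc25a12-206 led in library 1 with 76.0%. The Slc25a12 levels above therefore rest on different transcripts in each library. Coding transcripts held a median of 98.6% of a gene's TPM in library 2 and 97.9% in library 1 over the 25 members.

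**Figure D5:**
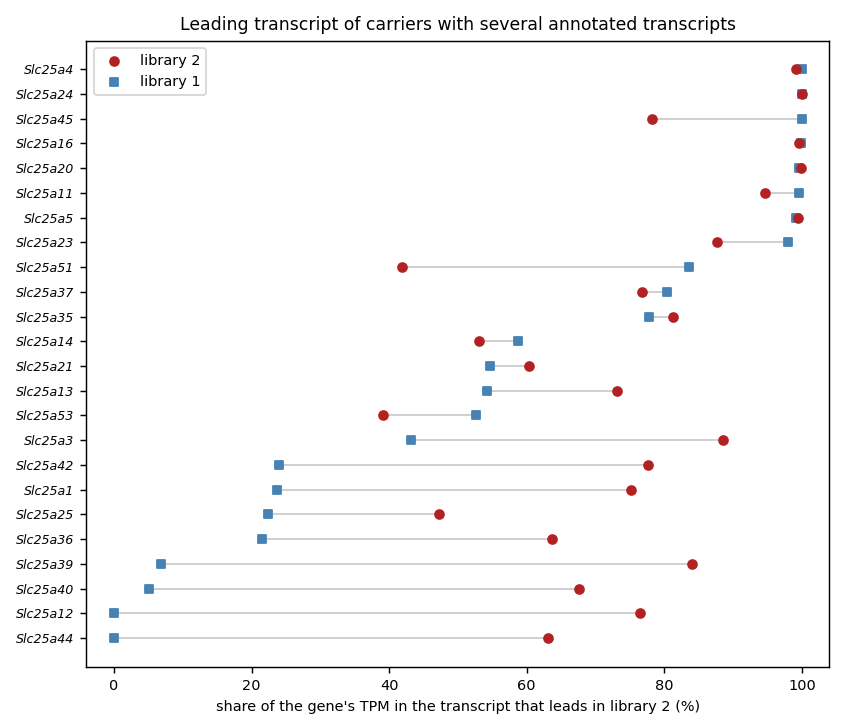
Share (%) of a gene's TPM held by the transcript that leads in library 2, in library 2 (circles) and library 1 (squares), for 24 carriers with 2 or more transcripts and 50 counts or more in each library. Slc25a39 stands at 84.1% and 6.9%, while Slc25a5 and Slc25a4 stay above 99% in both.

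Slc25a3 has alternative versions of the third exon of its coding transcripts, which are known to differ between muscle and other tissues. Slc25a3-201 carries the exon at chr10:91121922-91122043 and was at 605 TPM in library 2 and 156 TPM in library 1. Slc25a3-206 carries the exon at chr10:91122207-91122331 instead and was at 1.15 TPM in library 2 and 0.13 TPM in library 1. The first version thus made up nearly all coding Slc25a3 RNA in both libraries. As a share of all Slc25a3 TPM, Slc25a3-201 held 88.6% in library 2 and 43.2% in library 1. The rest of library 1 was mostly a retained-intron transcript, Slc25a3-207, at 2.43% in library 2 and 33.3% in library 1, and a noncoding processed transcript, Slc25a3-205, at 0% and 21.2%. The total Slc25a3 level of library 1 is therefore only in part that of RNA annotated as coding.

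Genes that serve carriers or other mitochondrial transport were counted as 2 lists. Of the 13 genes that import carriers into the inner membrane, 4 were called higher in library 2, 2 lower and 7 not called, against 35.5% higher and 24.9% lower over all genes tested. Tomm40, the pore of the outer membrane (60.9% GC), was at 35.2 TPM in library 2 and 0.07 TPM in library 1. Timm13, a chaperone of the intermembrane space (58.2% GC), was at 85.3 and 0.03 TPM. Timm10, its fellow chaperone, was at 40.6 TPM in library 2 and 0.65 TPM in library 1. Tomm70a, the receptor for carrier precursors, was at 34.7 TPM in library 2 and 44.0 TPM in library 1 and was called lower. Of 19 other transporters of mitochondrial membranes, 5 were called higher in library 2, 3 lower and 11 not called. Lists this short do not set these genes apart from the shares of all genes. With the GC trend removed, 4 import genes were called higher and 2 lower. In the transporter list 2 were called higher and 2 lower in that way, where all genes tested gave 11.4% and 10.6%. The median log2 ratio was -0.05 in the import list and -0.15 in the transporter list, beside 0.12 for all genes tested. The pyruvate carrier subunits Mpc1 and Mpc2 were not called, with Mpc1 at 443 TPM in library 2 and 284 TPM in library 1 and Mpc2 at 342 and 392 TPM. The calcium uniporter Mcu was at 10.1 TPM in library 2 and 3.88 TPM in library 1 and was not called either.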

How the data were processed

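Poly(A) RNA-seq of 2 technical replicate libraries of 1 kidney sample was analysed. Per the file headers, each deposited table gives estimated (expected) counts and TPM for genes, and transcript tables give the percent of a gene's TPM held by each transcript. The deposited text names assembly mm10 and annotation M4; the aligner, the quantifier and the use of strand in counting have no statement in the sources used here. Names, coding sequences and GC content came from GENCODE M21, which matched 98.0% of 43346 gene rows; GC was used where the transcript lengths of both releases lay within 10%. The 26345 spike-in and short RNA rows held 0 counts and were left out.

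Deposited expected counts were rounded to whole numbers and genes with under 10 counts over both libraries were left out. With 1 group and no biological replicate, edgeR's quasi-likelihood fit has no residual degrees of freedom, so edgeR (4.0.16) gave TMM sizes only, and DESeq2 (1.42.0) size factors were an alternative. The exact binomial test ran in scipy (1.17.1), with a prior count of 0.5 in log2 ratios, and was tested on simulated data. Apart from a set GC trend, unchanged genes in the simulation varied by counting error alone. The simulation therefore does not cover the wider spread between these libraries. Near-identical copies were stretches of 95% identity over 50% of a transcript (blastn 2.17.0). The GC trend was a smooth of the ratio over genes with 100 counts or more. Depth was 20720537 counts in library 2 and 28263730 in library 1; intervals cover counting error only. Every member with a mean of 1 TPM or more is named with both values, except 1 that is not reported here by name and is left out of the figures that label genes. The members and lists were chosen with earlier results of these data known. Posterior mean counts, other scalings, count minimums, prior counts and TPM totals were tried as alternatives.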

Additional observations from a re-analysis of the deposited data

How the results depend on the processing

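Of 44 tested members, each kept its direction, and the 29 called kept their call, with DESeq2 size factors, no count minimum, posterior mean counts and a prior count of 2. With total counts, 23 of the 29 called kept their call, 6 lost it and 3 others gained one; no called member turned sign, and 9 not called did. With the GC trend removed, 12 members were called instead of 29 (9 higher and 3 lower in library 2); of the 27 called members with a GC value, 16 lost their call and 10 turned sign: Slc25a1 (-1.38), Slc25a23 (-1.28), Slc25a33 (-0.63), Slc25a25 (-0.55), Slc25a44 (-0.33), Slc25a11 (-0.09), Slc25a48 (-0.071), Slc25a16 (0.12), Slc25a36 (0.21) and Slc25a21 (0.24). Another 5 that were not called turned sign too. The median log2 ratio of the members was 1.63 with total counts, 0.49 with no count minimum, 0.061 with the GC trend removed and 1.045 without Slc25a5, the 1 member with near-identical copies, against 0.73; fewer or more members enter some of these medians. Members at 1 TPM or more in both libraries numbered 33, and 38 without mitochondrial genes, 35 with posterior means and, chosen after seeing the data, 29 over coding transcripts only. The mean summed TPM of both libraries was 2687, and 5757 without mitochondrial genes. Library 2 alone and library 1 alone gave sums of 4076 and 1297 TPM, medians of 20.0 and 3.16 TPM, and Slc25a3-201 shares of 88.6% and 43.2%. No test could be made with 1 library. No paired analysis was possible because there is 1 group only. Depth limits members with 1 to 10 counts in library 1, whose ratios have wide intervals.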
